A study of Mus musculus with 12 samples.

Results

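The genes described here are 38 genes of S phase and mitosis, whose transcripts are found mainly in dividing cells. They were chosen by name from known genes of the cell cycle, and each matched exactly 1 of the 43432 genes in the count table of a study of mouse sciatic nerve. Of these, 14 act at entry into and during S phase, and 24 act in G2 and M phase.

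RNA was measured in whole sciatic nerves of 12 mice at 1 month of age, with 1 nerve and 1 library per mouse. The WT control group (*Mtmr2* wt/wt, no treatment), the *Mtmr2* KO group (*Mtmr2* -/-, no treatment) and the niacin-treated *Mtmr2* KO group (*Mtmr2* -/-, niacin) held 4 mice each. The labels give no treatment for the first 2 groups, while the study's text calls its KO comparison mice vehicle treated, and "untreated" here means without niacin. *Mtmr2* encodes a phosphoinositide phosphatase whose loss causes the demyelinating neuropathy CMT4B1, and niacin was tested in this model as a treatment. The treated mice were injected intraperitoneally with niacin at 120 mg/kg from postnatal day 10 to 21, then given a slow-release form by gavage to day 30. The KO line was made on a 129/SvPas background, each group held 3 males and 1 female, and the labels do not say which library came from which sex. The nerve was not dissociated, so Schwann cells, fibroblasts, blood vessel, fat and immune cells all contributed RNA.

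Most cells of a peripheral nerve are quiescent by this age, and myelinating Schwann cells no longer divide. A cell that enters the cycle first makes cyclin E and loads the MCM helicase onto its replication origins, then makes nucleotides and copies its DNA. It next makes the mitotic cyclins and the proteins that condense, attach and separate the chromosomes. The genes of S phase are classical targets of the E2F factors. Those of G2 and M phase are bound by the MuvB complex and its partners at a short element called CHR, usually with NF-Y at CCAAT boxes nearby.

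The start regions of 5 genes to which the results refer most are shown because their letters differ between S phase and mitosis. Windows from 250 bases before to 50 bases after the transcription start were taken from RefSeq (GRCm38.p6) and existed for 32 of the 38 genes. In each sequence, given 5′ to 3′ on the strand of the gene, capitals mark CCAAT, the CHR letters TTTGAA or TTCGAA, and the E2F letters TTTGGCGC, TTTGCCGC, TTTCGCGC or TTTCCCGC, on either strand.
*Mcm6*, chr1:128359656-128359955, - strand: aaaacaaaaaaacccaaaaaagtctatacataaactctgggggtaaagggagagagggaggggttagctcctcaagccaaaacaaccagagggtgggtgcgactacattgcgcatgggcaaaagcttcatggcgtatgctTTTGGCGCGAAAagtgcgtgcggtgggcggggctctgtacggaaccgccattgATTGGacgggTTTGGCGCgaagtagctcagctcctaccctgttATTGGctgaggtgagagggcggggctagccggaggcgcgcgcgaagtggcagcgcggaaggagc
*Cdk1*, chr10:69352863-69353162, - strand: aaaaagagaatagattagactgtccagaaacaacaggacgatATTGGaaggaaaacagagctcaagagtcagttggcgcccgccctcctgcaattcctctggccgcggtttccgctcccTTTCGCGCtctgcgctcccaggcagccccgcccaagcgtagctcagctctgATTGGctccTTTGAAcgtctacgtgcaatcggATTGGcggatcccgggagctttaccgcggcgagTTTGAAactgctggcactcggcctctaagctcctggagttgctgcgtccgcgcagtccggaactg
*Cenpf*, chr1:189688037-189688336, - strand: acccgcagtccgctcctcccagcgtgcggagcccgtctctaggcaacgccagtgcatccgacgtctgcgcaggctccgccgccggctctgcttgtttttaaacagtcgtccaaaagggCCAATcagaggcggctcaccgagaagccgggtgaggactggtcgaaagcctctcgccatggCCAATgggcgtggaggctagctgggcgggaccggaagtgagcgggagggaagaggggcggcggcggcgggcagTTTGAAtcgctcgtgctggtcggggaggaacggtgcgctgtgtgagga
*Top2a*, chr11:99024140-99024439, - strand: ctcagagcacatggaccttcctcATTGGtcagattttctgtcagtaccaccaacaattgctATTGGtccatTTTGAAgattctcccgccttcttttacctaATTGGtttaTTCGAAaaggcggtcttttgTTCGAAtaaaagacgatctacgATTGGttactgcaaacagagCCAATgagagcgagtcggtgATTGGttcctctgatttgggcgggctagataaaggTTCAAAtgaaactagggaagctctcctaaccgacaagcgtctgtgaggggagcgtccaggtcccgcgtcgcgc
*Mki67*, chr7:135716330-135716629, - strand: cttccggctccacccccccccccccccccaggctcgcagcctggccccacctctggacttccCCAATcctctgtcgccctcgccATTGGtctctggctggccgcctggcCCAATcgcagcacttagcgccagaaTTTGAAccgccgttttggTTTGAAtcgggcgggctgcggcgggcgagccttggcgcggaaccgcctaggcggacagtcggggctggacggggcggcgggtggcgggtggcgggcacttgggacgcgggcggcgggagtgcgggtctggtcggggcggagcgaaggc

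*Mcm6*, a subunit of the replicative helicase, held 3 E2F matches, the first 2 of them overlapping on opposite strands, with 2 CCAAT matches and no CHR match. *Top2a*, the topoisomerase that untangles replicated chromosomes, held 6 CCAAT and 4 CHR matches and no E2F match. *Mki67*, which encodes the Ki-67 protein that coats mitotic chromosomes, held 3 CCAAT and 2 CHR matches. *Cenpf*, a kinetochore protein, held 2 CCAAT and 1 CHR match. *Cdk1*, the mitotic kinase, was the 1 G2 and M phase gene whose window held E2F letters as well.

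Over the 12 windows of S phase genes, 6 held E2F letters and 2 held CHR letters. Over the 20 windows of G2 and M phase genes, 1 held E2F letters, 16 held CHR letters and 18 held CCAAT. Among all 32851 windows of the same length, 2.26% held E2F letters, 19.2% CHR letters, 37.4% CCAAT, and 7.52% both CCAAT and CHR. At least 2 CCAAT matches were present in 17 of the 32 windows (53.1%), against 11.7% of all windows. *Birc5*, *Nusap1*, *Ccne1* and *Tyms* held none of the 3 motifs in their windows.

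The libraries held between 20763951 and 33191106 counts, and 17257 genes passed the filter on low counts. All 38 genes passed, with counts from 8 (*Bub1*) to 2225 (*Pcna*) in single libraries. *Prx*, which encodes periaxin of myelinating Schwann cells, was measured at 3411 to 7658 CPM (the counts of a gene scaled to the TMM-adjusted size of its library). *Mtmr2* was between 128 and 161 CPM in WT control libraries and between 66.8 and 84.7 CPM in 7 of the 8 libraries labelled *Mtmr2* KO. The library labelled *Mtmr2* KO replicate 4503 had 143 CPM, within the WT control range, so results are also given without it. The summed level of 7 skeletal muscle and satellite cell markers was 2381 and 2133 CPM in niacin-treated replicates 4506 and 4507 and at most 65.5 CPM elsewhere. *Xist*, transcribed from the inactive X chromosome, was between 545 and 687 CPM in replicates 4498 (WT control), 4502 (*Mtmr2* KO) and 4506 (niacin-treated) and at most 5.99 CPM in the other 9 libraries.

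The transcripts of dividing cells were scarce in these nerves. Scaled to the merged exon length of each gene, mean levels over the 12 libraries ran from 0.224 CPM per kb for *Bub1*, a spindle checkpoint kinase, to 27.4 CPM per kb for *Pcna*, the sliding clamp of DNA polymerase. The next most abundant per length were *Mcm7* at 6.13, *Mcm4* at 5.44, *Mcm3* at 3.93 and *Rrm1* at 3.73 CPM per kb. These last are helicase subunits and the large subunit of ribonucleotide reductase, which makes deoxynucleotides. *Mki67* and *Top2a* lay at 1.20 and 1.18 CPM per kb. Fewer dividing cells and less of these transcripts per dividing cell cannot be told apart in RNA of whole nerves.

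**Figure D1:**
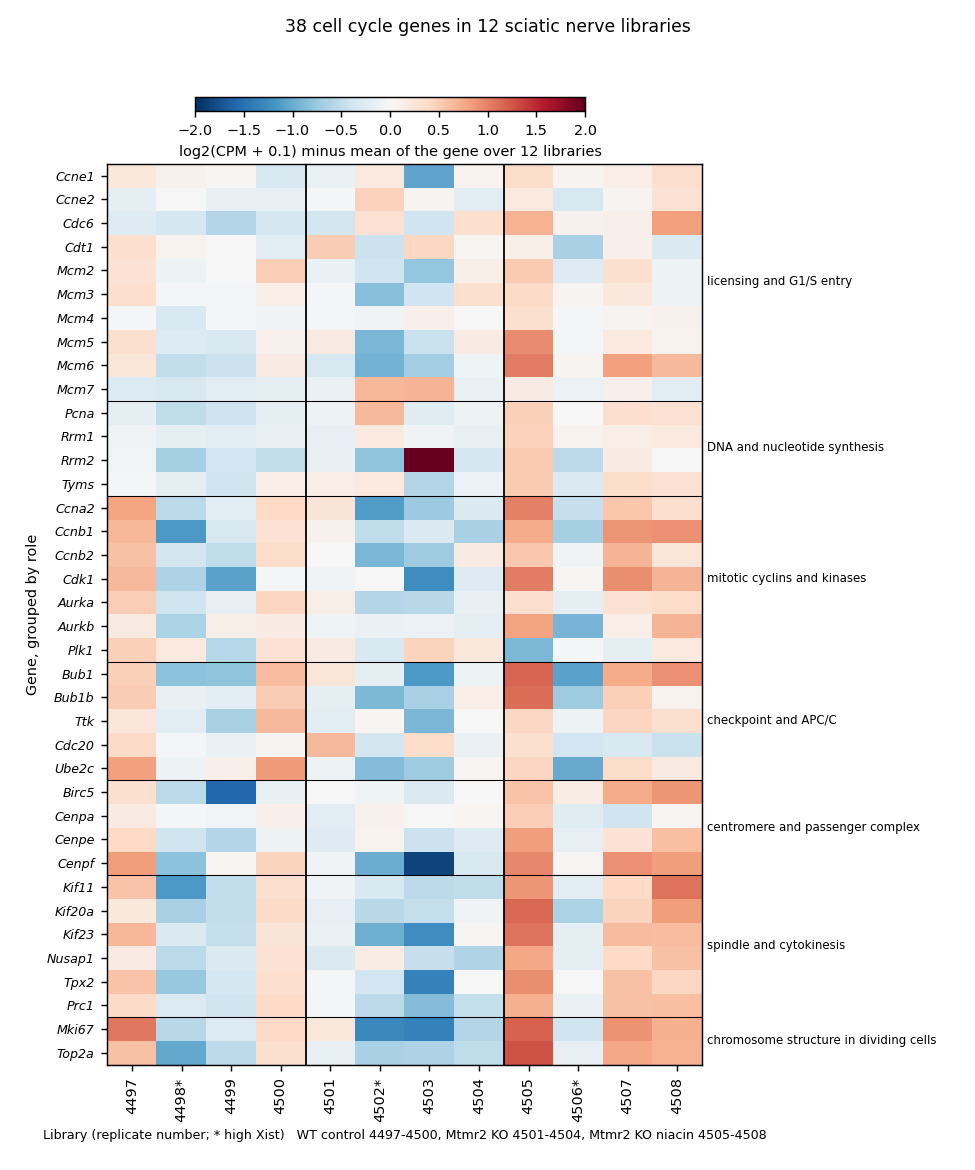
Each row is 1 of the 38 genes and each column 1 of the 12 libraries, and the colour gives log2(CPM + 0.1) minus the mean of that gene over the 12 libraries, on a scale limited at 2 in either direction. Most rows are red in replicates 4505, 4507 and 4508 and in WT control replicate 4497, and *Rrm2* in replicate 4503 (27.2 CPM) lies beyond the scale.

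The G2 and M phase genes varied widely from library to library. Their summed level in WT control replicates 4497, 4498, 4499 and 4500 was 121, 57.8, 62.2 and 101 CPM. In *Mtmr2* KO replicates 4501, 4502, 4503 and 4504 the sum was 82.5, 57.4, 53.6 and 67.4 CPM. Niacin-treated replicates 4505, 4506, 4507 and 4508 had sums of 148, 67.8, 118 and 119 CPM. Thus 3 of the 4 niacin-treated libraries lay above all *Mtmr2* KO libraries, the other lay within their range, and the range of the WT control group spanned most of both.

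The 14 S phase genes differed less between libraries. Their sum was 200, 168, 174 and 194 CPM in WT control, 195, 250, 223 and 201 CPM in *Mtmr2* KO and 284, 202, 243 and 233 CPM in niacin-treated mice, in the same order of replicates. *Pcna* alone made up a large share of these sums, but they did not follow it everywhere. In *Mtmr2* KO replicate 4503 *Pcna* was lowest of its group at 54.1 CPM, while the sum was 223 CPM. There *Mcm7* was at 42.2 CPM and *Rrm2* at 27.2 CPM.

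**Figure D2:**
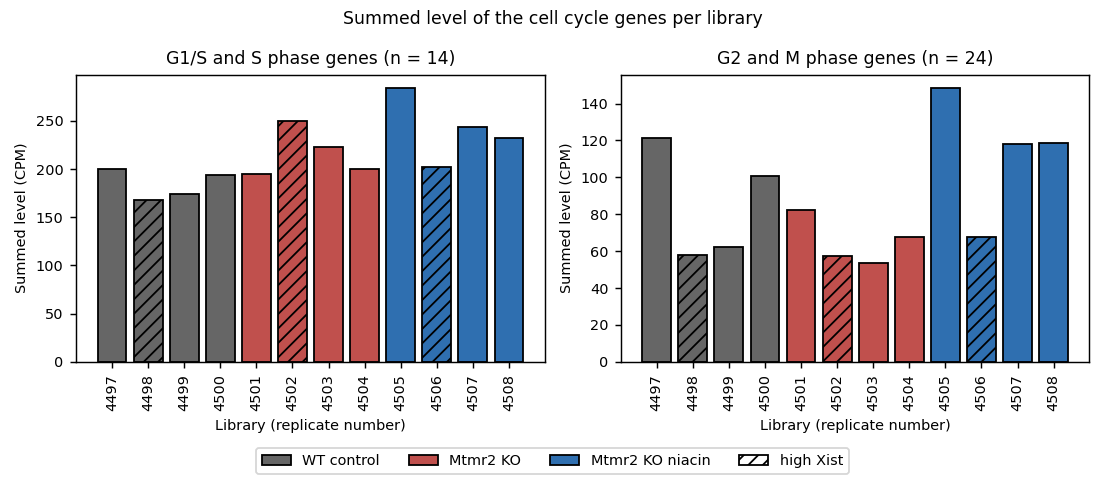
Bars give the summed level in CPM of the 14 G1/S and S phase genes (left) and of the 24 G2 and M phase genes (right) in each library, coloured by group, and hatching marks the 3 libraries with high *Xist*. The G2 and M phase sum ran from 53.6 CPM in replicate 4503 to 148 CPM in replicate 4505, where the hatched bar is the lowest of the WT control and niacin-treated groups and the second lowest of the *Mtmr2* KO group.

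Within each group the order of the libraries was shared by many genes. Among the 38 genes, 26 were highest of the WT control libraries in replicate 4497 and 11 in replicate 4500, against 25.9% and 31.2% of all genes tested. Of the niacin-treated libraries, replicate 4505 was highest for 29 of the 38 (27.3% of all genes tested) and replicate 4506 lowest for 33 of the 38 (25.8% of all genes tested). In the *Mtmr2* KO group no library led as clearly, with 13 genes highest in replicate 4501, 11 in 4504, 10 in 4502 and 4 in 4503. Replicate 4505, with the highest levels, had a total of 20983641 counts, among the lowest of the series.

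Across the design the 3 comparisons came from a single quasi-likelihood fit in edgeR on 17257 genes, and "called" means a p under 0.05 after Benjamini-Hochberg adjustment. For each gene an exact permutation p, two-sided, was computed as well, and 4 libraries against 4 allow no value under 0.0286. The comparisons of niacin with *Mtmr2* KO and of *Mtmr2* KO with WT control share the *Mtmr2* KO libraries, so their values are given side by side and not correlated.

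*Mtmr2* KO nerves were compared with WT control nerves to see what loss of *Mtmr2* did to transcripts of dividing cells. None of the 38 genes was called by edgeR in either direction, where 0.0464% of all genes tested were called higher and 0.220% lower. DESeq2 on the 12 libraries also called 0 of them, where it called 272 genes higher and 411 lower of 18096. Limma-voom likewise called 0, where it called 9 genes higher and 99 lower of 17257. At an unadjusted p under 0.05, 3 genes were higher and 2 lower, against 9.35% and 7.90% of all genes tested. The median log2 fold change of the 38 genes was −0.24, and that of all genes tested 0.03. It was 0.12 over the 14 S phase genes, of which 9 had a positive sign, and −0.34 over the 24 G2 and M phase genes, of which 21 had a negative sign. In one gene, *Mcm7*, all *Mtmr2* KO libraries lay above all WT control libraries (3.85% of all genes tested), and in none did they lie below (5.46% of all genes tested).

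*Mcm7*, a helicase subunit, was at 21.7, 21.1, 22.5 and 23.2 CPM in WT control and at 23.9, 41.9, 42.2 and 24.0 CPM in *Mtmr2* KO. The higher mean rested on replicates 4502 and 4503, while the other *Mtmr2* KO libraries were within 1 CPM of the highest control (log2 fold change 0.58, SE 0.19, edgeR adjusted p = 0.160, exact permutation p = 0.0286). In the niacin-treated libraries it was 29.6, 24.4, 28.2 and 22.7 CPM. Exons of *Mcm7* overlap those of *Cops6* and *Ap4m1* on the opposite strand and hold the microRNA genes *Mir25* and *Mir93*, and no source used here says whether reads were counted by strand.

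*Rrm2*, the small subunit of ribonucleotide reductase, was at 27.2 CPM in the library labelled *Mtmr2* KO replicate 4503. It was at 3.96, 2.59, 3.16 and 2.90 CPM in WT control, at 3.73, 2.33 and 3.27 CPM in the other *Mtmr2* KO libraries and at 5.98, 2.86, 4.66 and 4.16 CPM after niacin. The log2 fold change of 1.55 (SE 0.63, edgeR adjusted p = 0.231) was −0.018 without replicate 4503, so that 1 library decided its value. *Rrm1*, which encodes its partner subunit, was at 38.7 CPM in replicate 4503 and between 36.2 and 46.7 CPM in the other *Mtmr2* KO libraries.

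*Pcna* was at 55.7, 44.9, 48.0 and 55.8 CPM in WT control and at 59.4, 99.8, 54.1 and 59.9 CPM in *Mtmr2* KO (log2 fold change 0.42, SE 0.18, edgeR adjusted p = 0.263). Replicate 4502 stood above the other 3, which lay close to the controls.

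The genes with the lowest p in the downward direction were *Cenpf* and *Ube2c*. *Cenpf* was at 5.71, 1.73, 3.23 and 4.30 CPM in WT control and at 3.00, 1.52, 0.801 and 2.50 CPM in *Mtmr2* KO (log2 fold change −0.94, SE 0.41, edgeR adjusted p = 0.260). *Ube2c*, the ubiquitin-conjugating enzyme of the anaphase-promoting complex, was at 2.40, 1.22, 1.42 and 2.46 CPM in WT control and at 1.22, 0.673, 0.769 and 1.35 CPM in *Mtmr2* KO (log2 fold change −0.91, SE 0.37, edgeR adjusted p = 0.230). In both genes the groups overlapped. *Mki67* came next among them, with 21.4, 6.94, 8.46 and 13.6 CPM in WT control and 11.8, 4.13, 3.97 and 6.83 CPM in *Mtmr2* KO (log2 fold change −0.91, SE 0.43, edgeR adjusted p = 0.294).

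Without replicate 4503 the comparison again had 0 of the 38 genes called, where 1 of all 17430 genes tested was called higher and 5 lower. The median log2 fold change of the 38 genes was then −0.14. The summed level of 8 neutrophil markers was 16.3, 16.3, 5.96 and 1.73 CPM in the *Mtmr2* KO libraries and at most 1.33 CPM in WT control. *S100a8*, a calcium-binding protein of neutrophils, was at 0.577 to 6.68 CPM in the former and at most 0.182 CPM in the latter. Not all 8 markers followed it. *Mpo* was at 0.105 to 0.404 CPM in *Mtmr2* KO and 0.307 to 0.436 CPM in WT control, and *Elane* at 0 to 0.493 CPM and 0.218 to 0.431 CPM. Macrophage markers summed to 319 to 536 CPM and 359 to 398 CPM. All 7 adipocyte markers had a negative sign, with sums of 738 to 4509 CPM and 2593 to 3404 CPM. Of these, 2 fell (0.220% of all genes tested were called lower), *Lep* (log2 fold change −2.03, edgeR adjusted p = 0.0364) and *Plin1* (−1.84, edgeR adjusted p = 0.0448). Both calls were lost without any 1 WT control library, where edgeR called 0 of all genes tested. Both were also lost without replicate 4503, 4507 or 4508, and that of *Plin1* without 4506. All 6 endothelial markers had a negative sign as well, 2 at an unadjusted p under 0.05 (7.90% of all genes tested) and 0 called (0.220% of all genes tested), with sums of 183 to 619 CPM and 481 to 529 CPM. Their part in the values of the cell cycle genes was not tested.

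Niacin-treated *Mtmr2* KO nerves were compared with untreated *Mtmr2* KO nerves, the comparison of the treatment itself. *Mcm6* rose and was the 1 gene of the 38 that edgeR called higher (0.695% of all genes tested), and 0 were called lower (0.730% of all genes tested). At an unadjusted p under 0.05, 15 of the 38 were higher and 0 lower, where 8.01% and 12.1% of all genes tested were. All but *Mcm6* of these 15 act in G2 and M phase. The median log2 fold change was 0.53 over the 38 genes, 0.29 over the S phase genes and 0.80 over the G2 and M phase genes, and −0.04 over all genes tested. Positive signs were found in 10 of the 14 S phase and 22 of the 24 G2 and M phase genes. In 5 genes, *Mcm6*, *Cdk1*, *Birc5*, *Cenpf* and *Tpx2*, all treated libraries lay above all untreated libraries (3.60% of all genes tested), and in none below (3.40% of all genes tested).

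*Mcm6* was at 6.76, 4.03, 4.21 and 6.39 CPM in WT control, at 4.56, 2.91, 3.46 and 5.39 CPM in *Mtmr2* KO and at 11.7, 5.94, 10.1 and 9.01 CPM in niacin-treated mice. The treated libraries lay above every untreated *Mtmr2* KO library, and 3 of the 4 above every WT control library. Its log2 fold change between treated and untreated *Mtmr2* KO mice was 1.17 (SE 0.26, 2.25-fold, edgeR adjusted p = 0.0459, exact permutation p = 0.0286). Over 23 other settings the log2 fold change stayed between 1.00 and 1.33, and the adjusted p ran from 0.00166 to 0.276, with the gene called in 11 of them. Without replicate 4503 it was 1.10 with an adjusted p of 0.113. The other helicase subunits did not pass the test, with log2 fold changes of 0.42 for *Mcm2*, 0.33 for *Mcm3*, 0.11 for *Mcm4*, 0.54 for *Mcm5* and −0.33 for *Mcm7*.

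Of the other genes of licensing and S phase entry, *Cdc6*, which loads the helicase, was at 1.71, 2.78, 1.67 and 2.84 CPM in *Mtmr2* KO and at 3.67, 2.38, 2.42 and 4.03 CPM in niacin-treated mice, and the groups overlapped (adjusted p = 0.306 by edgeR). *Cdt1*, its partner, and the cyclins E, *Ccne1* and *Ccne2*, had log2 fold changes of −0.34, 0.40 and −0.02. The genes of nucleotide and DNA synthesis, *Pcna*, *Rrm1*, *Rrm2* and *Tyms* (thymidylate synthase), had log2 fold changes of 0.20, 0.26, −1.06 and 0.32, none with an unadjusted p under 0.05. That of *Rrm2* again contained the value of replicate 4503.

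Among the mitotic cyclins and kinases, *Cdk1* was at 1.99, 2.11, 0.833 and 1.73 CPM in *Mtmr2* KO and at 4.36, 2.12, 4.11 and 3.43 CPM in niacin-treated mice. The lowest treated library, replicate 4506, lay just above the highest untreated one (log2 fold change 1.08, SE 0.39, edgeR adjusted p = 0.153). Its activating subunits *Ccna2*, *Ccnb1* and *Ccnb2*, the cyclins A and B, had log2 fold changes of 0.85, 0.95 and 0.71 with adjusted p between 0.223 and 0.253. The Aurora kinases *Aurka* and *Aurkb* had values of 0.52 and 0.46. *Plk1*, the polo-like kinase, the most abundant of this role by CPM, was at 3.41, 2.42, 4.13 and 3.51 CPM in untreated and 1.57, 2.95, 2.65 and 3.47 CPM in treated *Mtmr2* KO mice, and its log2 fold change was −0.34 (adjusted p = 0.527).

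None of the 5 genes of the spindle checkpoint and the anaphase-promoting complex reached an unadjusted p of 0.05. *Cdc20*, the activator of that complex, was at 9.75, 4.75, 7.98 and 5.58 CPM in untreated and 7.74, 4.73, 4.98 and 4.50 CPM in treated *Mtmr2* KO mice, a log2 fold change of −0.36 (edgeR adjusted p = 0.432). The checkpoint kinases *Bub1*, *Bub1b* and *Ttk* had log2 fold changes of 0.96, 0.76 and 0.53, and *Ube2c* 0.50. *Cdc20* and *Plk1* were thus the 2 genes of the 24 with a negative sign.

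In the centromere group, *Cenpf* was at 6.17, 3.21, 5.99 and 5.66 CPM in niacin-treated mice, where the highest untreated *Mtmr2* KO library had 3.00 CPM. It had the largest log2 fold change of the 38 genes, 1.43 (SE 0.41, edgeR adjusted p = 0.0912). *Birc5*, the survivin subunit of the chromosomal passenger complex, was at 1.81, 1.70, 1.47 and 1.83 CPM in untreated and 2.74, 2.04, 3.11 and 3.43 CPM in treated *Mtmr2* KO mice (log2 fold change 0.73, SE 0.33, adjusted p = 0.240 by edgeR). *Cenpe*, a kinetochore motor, was at 3.10, 3.90, 2.72 and 3.08 CPM against 6.71, 3.29, 4.57 and 5.66 CPM, with overlap in replicate 4506 (log2 fold change 0.66, SE 0.26). *Cenpa*, the centromeric histone, had a log2 fold change of 0.04.

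All 6 genes of the spindle and cytokinesis group had an unadjusted p under 0.05. *Prc1*, which bundles the microtubules of the central spindle, was at 6.37, 4.44, 3.49 and 4.62 CPM in untreated and 10.6, 5.90, 9.78 and 9.82 CPM in treated *Mtmr2* KO mice (log2 fold change 0.93, SE 0.26, edgeR adjusted p = 0.0825). *Kif23*, a motor of the central spindle, was at 2.33, 1.26, 1.03 and 2.60 CPM against 5.53, 2.25, 4.02 and 3.99 CPM (log2 fold change 1.13, SE 0.37, edgeR adjusted p = 0.118). In both genes replicate 4506 lay inside the untreated range and the other 3 treated libraries lay above it. The remaining genes were the motors *Kif11* and *Kif20a* and the spindle assembly factors *Nusap1* and *Tpx2*, with log2 fold changes from 0.73 to 0.98 and adjusted p between 0.148 and 0.178.

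*Mki67* and *Top2a*, which mark dividing cells in tissue, had high values in the same treated libraries. *Mki67* was at 23.5, 7.76, 19.2 and 16.9 CPM in niacin-treated mice (log2 fold change against *Mtmr2* KO 1.33, SE 0.43, edgeR adjusted p = 0.119). *Top2a* was at 14.3, 4.60, 6.57 and 11.9 CPM in WT control, at 8.43, 6.01, 6.15 and 6.59 CPM in *Mtmr2* KO and at 23.1, 8.41, 16.2 and 15.3 CPM in niacin-treated mice (log2 fold change 1.21, SE 0.34, edgeR adjusted p = 0.0895). In both genes 3 treated libraries lay above all untreated *Mtmr2* KO libraries and replicate 4506 lay within their range. The exact permutation p was 0.0571 for each.

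**Figure D3:**
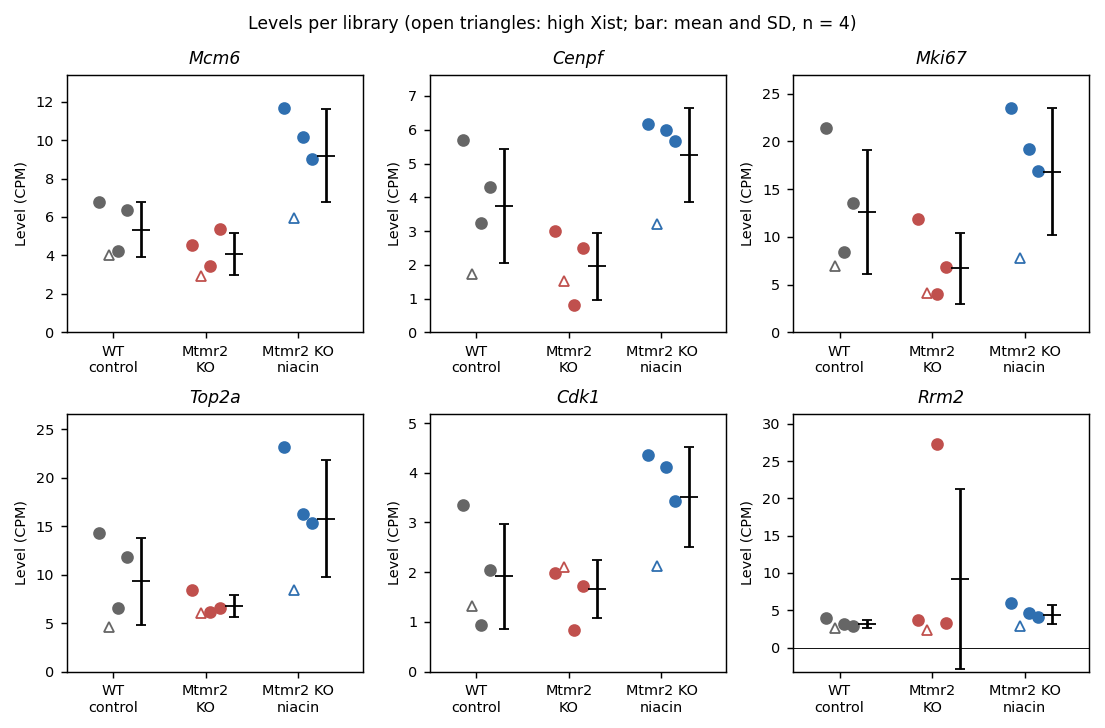
Points give the level in CPM of 6 genes in each library by group, with open triangles for the 3 libraries with high *Xist*, and bars give the mean and SD of each group (n = 4). In *Mcm6*, *Cenpf*, *Mki67*, *Top2a* and *Cdk1* the triangle of the niacin-treated group is its lowest point, and in *Rrm2* a single *Mtmr2* KO library, replicate 4503, stands at 27.2 CPM.

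The number of calls depended on the test and on single libraries. DESeq2 on the 12 libraries called 6 genes higher (2.98% of the genes it tested), namely *Mcm6*, *Cenpf*, *Kif23*, *Prc1*, *Mki67* and *Top2a*. Without the library labelled *Mtmr2* KO replicate 4503, 10 of the 38 genes were higher at an unadjusted p under 0.05 (6.04% of all genes tested) with a median of 0.48. EdgeR then called 0 of the 38, where 0.0344% of all genes tested were called higher. Without the 2 libraries with high skeletal muscle genes, 20 of the 38 were higher at an unadjusted p under 0.05 (4.25% of all genes tested) with a median of 0.77. There 0 of the 38 were called, as were 0 of all 18555 genes tested. The satellite cell genes *Pax7*, *Myod1* and *Myog* were low, and each was highest in a niacin-treated library, at 0.564, 0.548 and 0.320 CPM. They reached at most 0.102, 0 and 0.145 CPM in WT control and 0.288, 0.0962 and 0.0897 CPM in untreated *Mtmr2* KO. What they contribute to the cell cycle result was not tested. Exons of *Ube2c* overlap those of the muscle gene *Tnnc2*, and *Ube2c* was at 0.607 and 1.74 CPM in the libraries with high muscle genes.

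Markers of other cells were also compared between treated and untreated *Mtmr2* KO mice. Of the skeletal muscle and satellite cell markers 4 were tested, and all 4 were higher at an unadjusted p under 0.05 (8.01% of all genes tested). EdgeR called 3 of them (0.695% of all genes tested), with the high levels in replicates 4506 and 4507. No endothelial, macrophage or fibroblast marker was called (0.695% of all genes tested were called higher and 0.730% lower), and their sums overlapped. Endothelial markers summed to 183 to 619 CPM in untreated and 216 to 363 CPM in treated libraries, and macrophage markers to 319 to 536 CPM and 380 to 601 CPM. The highest macrophage sum, 601 CPM, was that of replicate 4505, which also had the highest G2 and M phase sum. The next highest, 536 CPM, was that of *Mtmr2* KO replicate 4502, whose G2 and M phase sum was 57.4 CPM. Fibroblast markers summed to 7960 to 12401 CPM and 10959 to 18847 CPM, again highest in replicate 4505. *Dcn* was at 2469 to 6730 CPM and 3760 to 4772 CPM in the same order. All 7 adipocyte markers had a positive sign, 3 at an unadjusted p under 0.05 (8.01% of all genes tested), and their sums were 738 to 4509 CPM and 2160 to 4356 CPM. Of these, *Lep* rose (log2 fold change 1.84, edgeR adjusted p = 0.0383), where 0.695% of all genes tested were called higher. The *Lep* call was lost without replicate 4503, 4506 or 4507. It was also lost without any 1 WT control library, where edgeR called at most 1 of all genes tested higher. All 9 Schwann cell markers had a negative sign, 3 at an unadjusted p under 0.05 (12.1% of all genes tested) and 0 called (0.730% of all genes tested), with sums of 86169 to 117953 CPM and 62610 to 102257 CPM. Their part in the cell cycle result was not tested.

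Niacin-treated *Mtmr2* KO nerves were also compared with WT control nerves, which differ in genotype and treatment at once. EdgeR called 0 of the 38 genes, as it called 0% of all genes tested in either direction, while DESeq2 on the 12 libraries called 2 of them higher (1.59% of the genes it tested) and limma-voom 10 (20.8% of all genes tested). At an unadjusted p under 0.05, 8 were higher and 0 lower, where 10.1% and 14.6% of all genes tested were. The median log2 fold change was 0.38, against 0.02 for all genes tested, and it was 0.31 over the S phase genes and 0.45 over the G2 and M phase genes. In 3 genes, *Cdc6*, *Pcna* and *Rrm1*, all treated libraries lay above all WT control libraries (14.9% of all genes tested), and in none below (16.6% of all genes tested).

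*Cdc6* was at 1.85, 1.73, 1.45 and 1.74 CPM in WT control, below all 4 treated libraries (log2 fold change 0.88, SE 0.26, edgeR adjusted p = 0.101). *Pcna* was at 89.1, 63.8, 80.8 and 79.3 CPM in niacin-treated mice, also above all controls (log2 fold change 0.62, SE 0.18, edgeR adjusted p = 0.104). *Rrm1* was at 38.9, 35.5, 34.7 and 36.6 CPM in WT control and 55.9, 42.5, 44.5 and 46.5 CPM in treated mice (log2 fold change 0.38, SE 0.12, edgeR adjusted p = 0.115). *Birc5* was at 2.29, 1.22, 0.545 and 1.64 CPM in WT control, with 1 treated library below the highest control (log2 fold change 0.99, SE 0.34, edgeR adjusted p = 0.124). *Mki67* had a log2 fold change of 0.42 (SE 0.42), and its WT control range reached 21.4 CPM. Endothelial markers were lower in treated than in WT control mice, 5 of 6 at an unadjusted p under 0.05 (14.6% of all genes tested) and 0 called, with sums of 216 to 363 CPM and 481 to 529 CPM.

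**Figure D4:**
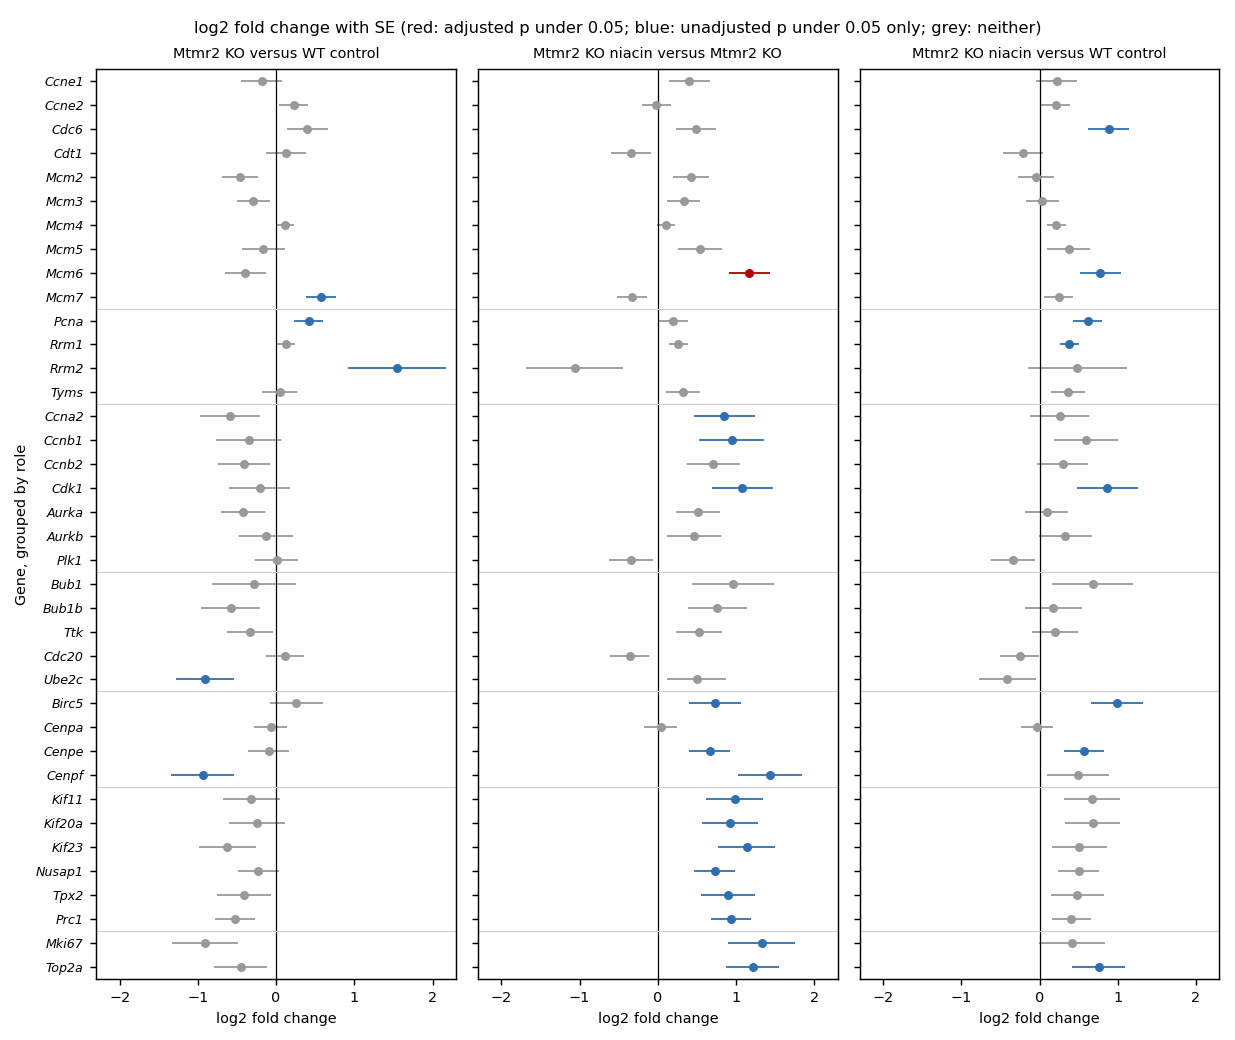
Points give the log2 fold change of each of the 38 genes with its SE in the 3 comparisons, ordered by role, in red where the edgeR adjusted p was under 0.05, in blue where only the unadjusted p was, and in grey otherwise. The 1 red point is *Mcm6* at 1.17 in the comparison of niacin-treated with untreated *Mtmr2* KO mice, where all 6 spindle and cytokinesis genes are blue.

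In WT control and niacin-treated mice the library with high *Xist* was often the lowest of its group. Among the 24 G2 and M phase genes, replicate 4498 was lowest for 13 (30.7% of all genes tested) and replicate 4506 for 21 (25.8% of all genes tested). WT control replicate 4499, with low *Xist*, was lowest for the other 11 of the 24 (17.9% of all genes tested). Low levels in WT control mice were thus not particular to the library with high *Xist*. In *Mtmr2* KO mice the place of the high *Xist* library was less clear. There replicate 4502 was lowest for 9 of the 24 (34.8% of all genes tested) and highest for 5. Replicate 4503, with low *Xist*, was lowest for 11 (28.2% of all genes tested). A model with group and the log2 level of *Xist*, its coefficient tested after the data had been seen, gave 16 of the 38 genes lower at an unadjusted p under 0.05 and 0 higher, where 0.846% and 1.50% of all genes tested were. Of the 16, 14 act in G2 and M phase, and all 24 of that set had a negative sign, with a median log2 difference of −0.71 when the coefficient is scaled to the gap between the high and the other libraries. No gene of the 38 had an edgeR adjusted p under 0.992 in this model, so none was called.

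In this model *Ccnb1* had a log2 difference of −1.13 (SE 0.31), *Mki67* −1.12 (SE 0.31) and *Ccna2* −1.04 (SE 0.28). *Ccnb1* was at 2.76, 0.719, 1.34 and 2.12 CPM in WT control, at 1.81, 1.17, 1.38 and 1.06 CPM in *Mtmr2* KO and at 2.94, 1.04, 3.24 and 3.30 CPM in niacin-treated mice, so the high *Xist* library was lowest of its group in WT control and niacin-treated mice and second lowest in *Mtmr2* KO mice. Among the S phase genes, only *Mcm6* (−0.64, SE 0.19) and *Mcm5* (−0.56, SE 0.23) had an unadjusted p under 0.05, and *Pcna* (0.09), *Rrm1* (0.04) and *Mcm7* (0.12) had differences near 0. The 3 libraries are 1 mouse per group, and each group held 1 female, though no label gives the sex of a library. Replicate 4506 also had high muscle genes, so *Xist*, sex and other properties of these mice cannot be told apart. Without the 3 libraries, 21 of the 38 genes were higher in niacin-treated than in untreated *Mtmr2* KO mice at an unadjusted p under 0.05 (16.7% of all genes tested), and edgeR called 13 of them (8.63% of all genes tested), with a median log2 fold change of 0.70.

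Other genes of the cell cycle were followed from lists written by role. Of 30 other S phase genes, 25 had a positive sign in niacin-treated against untreated *Mtmr2* KO mice, 6 at an unadjusted p under 0.05 (8.01% of all genes tested). Among them *Brca1*, a DNA repair gene, was called (0.695% of all genes tested were called higher). *Brca1* was at 1.36, 1.66, 0.993 and 1.49 CPM in untreated and 3.72, 2.12, 2.74 and 3.43 CPM in treated *Mtmr2* KO mice (log2 fold change 1.13, SE 0.26, edgeR adjusted p = 0.0470). It was called in 9 of the 23 other settings and lost its call without any 1 of 10 libraries. Against WT control mice 14 of the 30 were higher at an unadjusted p under 0.05 (10.1% of all genes tested) and 0 were called. The most abundant of them, *Pola1*, the catalytic subunit of DNA polymerase alpha, and *Slbp*, which binds histone mRNA, had log2 fold changes of 0.70 and 0.41 there. Of 45 other G2 and M phase genes, 37 had a positive sign in treated against untreated *Mtmr2* KO mice, 11 were higher and 1 lower at an unadjusted p under 0.05 (8.01% and 12.1% of all genes tested), and 0 were called. *Smc4*, a condensin subunit, and *Anln*, the cytokinesis protein anillin, were the most abundant of these by CPM, with log2 fold changes of −0.13 and −0.24.

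Most genes that restrain the cycle had the opposite sign. Of 15 inhibitors of cyclin-dependent kinases and genes of quiescence, 11 had a negative sign in treated against untreated *Mtmr2* KO mice. At an unadjusted p under 0.05, 7 were lower and 2 higher (12.1% and 8.01% of all genes tested). Of these *Cdkn1b* fell and was called, where 0.730% of all genes tested were called lower. *Cdkn1b*, the inhibitor p27, was at 371, 386, 373 and 333 CPM in WT control, at 687, 427, 789 and 469 CPM in *Mtmr2* KO and at 271, 329, 259 and 259 CPM in niacin-treated mice. The *Mtmr2* KO libraries lay above, and the treated libraries below, all WT control libraries (treated against untreated log2 fold change −1.09, SE 0.19, edgeR adjusted p = 0.0388). Its call held in 12 of the 23 other settings and was lost without any 1 of 9 libraries. *Cdkn1a*, the inhibitor p21, was at 392, 366, 417 and 367 CPM in WT control, at 582, 257, 899 and 462 CPM in *Mtmr2* KO and at 302, 328, 260 and 186 CPM in treated mice (log2 fold change −1.03, SE 0.29, edgeR adjusted p = 0.0907). *Gas1*, a growth arrest gene, was at 66.2, 78.5, 66.9 and 55.8 CPM in WT control and 31.6, 25.8, 17.9 and 44.4 CPM in *Mtmr2* KO. It fell in that comparison (log2 fold change −1.16, SE 0.22, edgeR adjusted p = 0.0497), where 0.220% of all genes tested were called lower. The *Gas1* call held in 7 of the 23 other settings and was lost without any 1 of 10 libraries, each WT control library among them. Without any 1 WT control library edgeR called 0 of all genes tested in *Mtmr2* KO against WT control. In treated mice *Gas1* was at 50.3, 49.3, 52.8 and 64.5 CPM, above all untreated *Mtmr2* KO libraries (3.60% of all genes tested). Its sign there was thus positive, against that of most of the 15 (log2 fold change 0.86, SE 0.22, edgeR adjusted p = 0.0684).

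**Figure D5:**
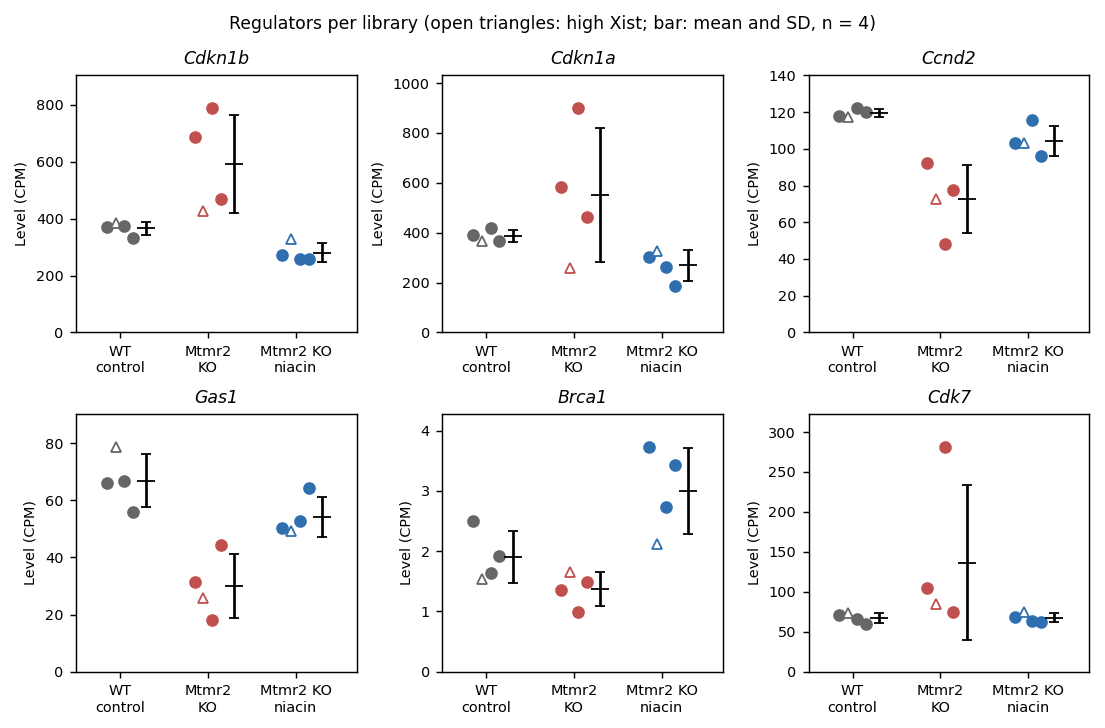
Points give the level in CPM of 6 regulators in each library by group, with open triangles for the libraries with high *Xist*, and bars give the mean and SD of each group (n = 4). *Cdkn1b* is between 427 and 789 CPM in *Mtmr2* KO and between 259 and 329 CPM in niacin-treated mice, and *Cdk7* and *Cdkn1a* are highest in replicate 4503.

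The 8 cyclins and kinases of G1 were not called in any comparison by edgeR. Of all genes tested it called 0.0464% higher and 0.220% lower in *Mtmr2* KO against WT control. In treated against untreated mice it called 0.695% and 0.730%, and in treated against WT control mice 0%. *Ccnd2*, cyclin D2, the most abundant by CPM, was at 118, 117, 122 and 120 CPM in WT control, at 92.2, 72.9, 48.2 and 77.5 CPM in *Mtmr2* KO and at 103, 103, 116 and 95.8 CPM in niacin-treated mice, so that the 3 groups did not overlap. Its log2 fold change was −0.72 (SE 0.16, edgeR adjusted p = 0.0686) in *Mtmr2* KO against WT control and 0.52 (SE 0.16, edgeR adjusted p = 0.107) in treated against untreated mice. *Cdk7*, the kinase that activates other cyclin-dependent kinases, was at 281 CPM in replicate 4503 and between 59.5 and 104 CPM in the other 11 libraries. Of the 20 E2F, MuvB and Myc regulators, 0 were called in any comparison, against the same shares. At an unadjusted p under 0.05, 3 were higher and 5 lower in *Mtmr2* KO against WT control (9.35% and 7.90% of all genes tested). In treated against untreated mice 0 were higher and 4 lower (8.01% and 12.1%), and against WT control 0 and 5 (10.1% and 14.6%). The most abundant by CPM, *Rbbp4* (a histone-binding subunit of MuvB) and *Max* (the partner of Myc), had log2 fold changes of −0.37 and −0.24 in treated against untreated *Mtmr2* KO mice.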

How the data were processed

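RNA was purified from 1 sciatic nerve per mouse, selected for polyA and sequenced on an Illumina HiSeq. Alignment by the authors was done with STAR (GRCm38), and raw counts per Ensembl gene were deposited. Which STAR version, counting program, annotation and strand setting they used is not given in the sources used. Tables of the authors' own comparisons (DESeq2 fold changes and p-values) gave gene symbols only.

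Groups came from the sample labels. The 38 genes, the other lists and the motifs were chosen with earlier results of these data known. The deposited counts entered edgeR 4.0.16 (R 4.3.3) as they were, with filterByExpr, TMM, 1 quasi-likelihood model over 12 libraries, two-sided, Benjamini-Hochberg over 17257 genes. The fit was tested on simulated data. CPM used TMM-scaled totals, and log2 levels a prior count of 2. Exact permutation p-values came from the 70 possible divisions of 8 libraries. Coordinates and exon lengths came from GENCODE M21, and start regions from RefSeq. For genes with more than 1 start region the one listed first was used. Exons of 9 of the 38 genes overlap those of another counted gene. No 2 libraries shared more than 1.84% of the counts of genes tested, so none was treated as deposited again.

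Alternatives were DESeq2 1.42.0 and limma 3.58.1, other scaling and filters, *Xist* as a covariate, thinning, and each library left out. The text names the 38 genes, and of other lists the called genes and the 2 most abundant. Genes with values in every library are, per role, the highest mean level, and the 5 with the smallest p per comparison. *Cdk1*, *Cenpe*, *Top2a*, *Ccnb1* and *Cdc6* where outside that rule were chosen after their values were seen.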

Additional observations from a re-analysis of the deposited data

Results flagged for a closer look

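In 7 of the 114 sets of 4 libraries (38 genes in 3 groups), 1 library stood apart from the other 3 by Dixon's test at its 95% critical value, and chance gives about 1 in 20. All 7 values lay in the 3 libraries with high *Xist*, and the reason was not tested. In WT control replicate 4498, *Mcm4* was at 15.7 CPM, where the others had 18.6 to 19.2 CPM, and *Aurkb* was at 0.827 CPM, where the others had 1.45 to 1.53 CPM. In *Mtmr2* KO replicate 4502, *Pcna* was at 99.8 CPM, where the others had 54.1 to 59.9 CPM. In niacin-treated replicate 4506, 4 genes were low. *Ccnb1* was at 1.04 CPM (others 2.94 to 3.30 CPM), *Aurka* at 1.39 CPM (others 2.01 to 2.10 CPM), *Cenpf* at 3.21 CPM (others 5.66 to 6.17 CPM) and *Prc1* at 5.90 CPM (others 9.78 to 10.6 CPM). *Pcna* was thus the 1 value of the 7 above its group.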

How the results depend on the processing

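No paired analysis was possible because each replicate number occurs once. In *Mtmr2* KO against WT control 0 of the 38 genes were called under all 23 alternatives. Several of these called 0 of all genes tested, among them edgeR on only the 2 groups and each fit without 1 WT control library. In niacin-treated against untreated *Mtmr2* KO mice edgeR called 1. The count (with the share of all genes called higher) was 6 with DESeq2 on 12 libraries (2.98%) and 4 with no filter (0.921%). On only the 2 groups it was 5 with DESeq2 (1.38%) and 0 with edgeR (0%). It was 0 to 7 with 1 library left out (7 without replicate 4502, 9.85%). Without the 3 libraries with high *Xist* it was 13 (8.63%), and without the 2 with high muscle genes 0 (0%). Against WT control it was 2 (1.59%) and 6 (16.9%) with DESeq2 on 12 libraries and on 2 groups, 10 with limma-voom (20.8%), 5 with edgeR on 2 groups (16.3%), 0 to 4 with 1 library left out (4 without replicate 4502, 8.90%) and 2 without the high *Xist* libraries (4.11%), in place of 0. Leaving out the high *Xist* or muscle libraries was chosen after seeing the data. The cause of these differences was not tested. The medians of the 38, S phase and G2 and M phase genes kept their sign under all alternatives. Single libraries moved some of them by over 1.5 times. In *Mtmr2* KO against WT control that of the 38 genes, −0.24, was −0.07 without replicate 4497, −0.11 without 4500, −0.14 without 4503 and −0.36 without 4498 or 4499. That of the G2 and M phase genes, −0.34, was −0.16 without 4497, −0.21 without 4500, −0.22 without 4503, −0.53 without 4501 and −0.56 without 4498, and that of the S phase genes, 0.12, was 0.05 without 4501, 4502 or 4503 and 0.07 without 4498. Against WT control in treated mice, that of the 38 genes was 0.24 and that of the S phase genes 0.17 without 4505, and that of the G2 and M phase genes 0.27 without 4498. No single library did so in treated against untreated *Mtmr2* KO mice. Of 644 values, under alternatives, of those of the 38 genes with an unadjusted p under 0.05, 579 kept direction and side of the threshold, 52 passed it, 12 no longer did, and *Rrm2* in *Mtmr2* KO against WT control, 1.55, reversed to −0.018 without replicate 4503 (range with 1 library left out −0.018 to 1.86). The 12 were *Mcm6* in treated against untreated *Mtmr2* KO mice, which lost its call with edgeR on 2 groups, without the muscle libraries and without any 1 of 10 libraries, each WT control library among them (adjusted p 0.0666 to 0.0737). Without any 1 WT control library edgeR called at most 1 of all genes tested higher in that comparison. The G2 and M phase genes had 8 to 589 counts per library.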
